A study of Homo sapiens with 2 samples.

Results

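Accessible chromatin was compared around 8 genes through which bone-forming cells control bone-resorbing osteoclasts and respond to parathyroid hormone (PTH): TNFSF11, TNFRSF11B, TNFRSF11A, CSF1, SOST, PTH1R, PTHLH and POSTN. All 8 were found in the RefSeq table of 20037 protein-coding genes. DNase-seq marks DNA that DNase I can cut because nucleosomes do not protect it, and regions with many cuts were called by the authors as hotspots. The series held 1 library each of Saos-2 and U2OS, established human lines derived from osteosarcoma, and its labels give no treatment and no genotype beyond the name of the line. With 1 library per line there is no replicate error and no test, and read depth is not given in the sources used here, so a difference describes these 2 libraries. A window was the span of a gene plus 100 kb on both sides. The windows held 64 of the 51556 Saos-2 hotspots and 78 of the 63388 U2OS hotspots.

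Osteoblast-lineage cells and osteocytes make RANK ligand, the product of TNFSF11, which binds its receptor RANK (TNFRSF11A) on osteoclast precursors and drives them to become osteoclasts. Osteoprotegerin, the product of TNFRSF11B, is a secreted decoy receptor that binds RANK ligand, and M-CSF (CSF1) keeps the precursors alive. PTH and the PTH-related peptide encoded by PTHLH act on bone through the receptor PTH1R, which signals through cyclic AMP. In bone, PTH is known to raise RANK ligand and to lower sclerostin, the WNT antagonist of osteocytes encoded by SOST. POSTN encodes periostin, a matrix protein of the periosteum. The hotspot lists hold no expression values, so neither the activity of these genes nor the osteoblast character of the lines could be checked.

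Few of the genes had a hotspot within 1 kb of a start. The RefSeq promoter table gave 8 entries for 6 of the genes, and no entry held a hotspot in either line. In both lines 0 of these 6 genes had a hotspot within 1 kb of a start, against 51.1% in Saos-2 and 55.9% in U2OS of the 15843 protein-coding genes with an entry. TNFRSF11B and CSF1 have no entry, and both ends of the gene were used for them. By that rule 1 of the 8 genes (TNFRSF11B) had such a hotspot in Saos-2 and 2 (TNFRSF11B and CSF1) in U2OS, against 48.1% and 53.5% of all protein-coding genes. A hotspot there in both lines was called for 1 of the 8 genes, against 43.3% of all genes, and in neither line for 6, against 41.8%. The U2OS hotspot of CSF1 lay 213 bp above its higher-coordinate end. The promoter table used here gives no strand for CSF1, so whether that end is its start was not determined. Without the CSF1 hotspot, TNFRSF11B alone of the 8 genes had a U2OS start hotspot. The count depends on the distance. Within 2.5 kb by the same rule, 4 of the 8 genes (TNFRSF11B, CSF1, SOST and PTH1R) had a Saos-2 hotspot, against 52.1% of all genes. A U2OS hotspot was called there for 3 (without PTH1R), against 58.2%. For CSF1 both lines were again counted at the higher-coordinate end, the Saos-2 hotspot lying 2056 bp from it. Of the 6 genes with an entry, 2 then had a Saos-2 and 1 a U2OS hotspot, against 54.5% and 59.8%. In the top 50% of each list by significance, 1 of the 8 genes (TNFRSF11B) had a hotspot within 1 kb of a start in either line, against 34.8% of all genes in Saos-2 and 39.3% in U2OS.

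The 5 sequences below are the 250 bases before a start, from RefSeq on GRCh38.p14, and are shown because they are starts without a hotspot that differ widely in CpG content. Capitals mark matches to motifs searched on both strands: AP-1 (TGANTCA), the cyclic AMP response element (TGACGTCA) and its core (TGACG), RUNX (TGTGGT), the TATA box (TATAAA), the GC box (GGGCGG) and TEAD (GGAATG). The core is contained in the full element.
TNFSF11, first start, chr13:42562486-42562735, plus strand: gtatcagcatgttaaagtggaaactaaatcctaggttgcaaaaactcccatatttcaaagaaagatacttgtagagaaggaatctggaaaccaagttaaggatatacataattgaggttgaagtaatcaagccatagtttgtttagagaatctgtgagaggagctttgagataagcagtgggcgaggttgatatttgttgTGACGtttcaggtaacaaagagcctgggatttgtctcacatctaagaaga
PTH1R, first start, chr3:46877471-46877720, plus strand: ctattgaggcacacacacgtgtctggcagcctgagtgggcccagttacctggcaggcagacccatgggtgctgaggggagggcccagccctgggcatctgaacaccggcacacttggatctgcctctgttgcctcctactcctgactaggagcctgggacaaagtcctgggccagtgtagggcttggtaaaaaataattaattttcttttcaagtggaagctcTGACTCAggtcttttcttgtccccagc
PTH1R, second start, chr3:46881999-46882248, plus strand: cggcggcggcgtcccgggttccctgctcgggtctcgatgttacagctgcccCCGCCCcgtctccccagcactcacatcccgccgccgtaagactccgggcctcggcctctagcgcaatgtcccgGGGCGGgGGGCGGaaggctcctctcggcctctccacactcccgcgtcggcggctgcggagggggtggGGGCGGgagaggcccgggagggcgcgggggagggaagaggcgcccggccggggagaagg
PTHLH, chr12:27969977-27970226, minus strand: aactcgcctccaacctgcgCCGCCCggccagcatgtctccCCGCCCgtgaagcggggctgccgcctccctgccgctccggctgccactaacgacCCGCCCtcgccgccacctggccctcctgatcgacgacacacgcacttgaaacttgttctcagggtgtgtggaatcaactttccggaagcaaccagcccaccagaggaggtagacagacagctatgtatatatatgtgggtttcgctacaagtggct
POSTN, chr13:37598769-37599018, minus strand: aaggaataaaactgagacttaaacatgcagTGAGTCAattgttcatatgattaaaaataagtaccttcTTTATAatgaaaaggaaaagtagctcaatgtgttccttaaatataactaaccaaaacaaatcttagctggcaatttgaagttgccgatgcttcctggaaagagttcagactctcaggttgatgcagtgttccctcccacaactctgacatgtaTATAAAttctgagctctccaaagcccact

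The first TNFSF11 start had 2 CpG dinucleotides in these 250 bases, and its 1 match was a cyclic AMP response element core, a sequence present in 21.2% of all 35116 promoter entries. The first PTH1R start also had 2 CpG and held an AP-1 match, found in 6.57% of entries. POSTN had 1 CpG, an AP-1 match and 2 TATA box matches, the latter motif being found in 10.7% of entries. Of these TATA box matches, 1 lay on the gene strand 29 to 24 bases before the start. The other lay on the opposite strand, 182 to 177 bases before it. At the other extreme, the second PTH1R start had 31 CpG and 4 GC box matches, and the PTHLH start had 19 CpG and 3 GC box matches. The GC box was found in 42.6% of entries. The second TNFSF11 start and the SOST start had 6 CpG each, and the TNFRSF11A start had 30. A TATA box match on the opposite strand was also found at the second TNFSF11 start, and GC box matches at the TNFRSF11A start. The full cyclic AMP response element (1.65% of entries) and the TEAD motif (11.9%) matched in none of the 8 entries, and the RUNX motif (11.0%) matched once, in TNFRSF11A. A match describes letters and not binding.

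Promoter hotspots were rare where CpG was rare. Of entries with 0 to 4 CpG, 4.30% held a hotspot in Saos-2 and 5.79% in U2OS, and the shares were 13.5% and 16.7% with 5 to 9 CpG. They were 48.8% and 52.6% with 10 to 19 CpG, and 54.9% and 60.3% with 20 or more. The 5 entries of TNFSF11, SOST, POSTN and the first PTH1R start therefore lay in classes where most promoters had no hotspot in these lines. The PTHLH entry lay in the class of 10 to 19 CpG, where about as many promoters had one as did not. The entries of TNFRSF11A and the second PTH1R start lay in the class of 20 or more. There 54.9% of promoters had one in Saos-2 and 60.3% in U2OS, each line being counted separately. These shares are across promoters within 1 library of each line, and promoters are not replicates.

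**Figure D1:**
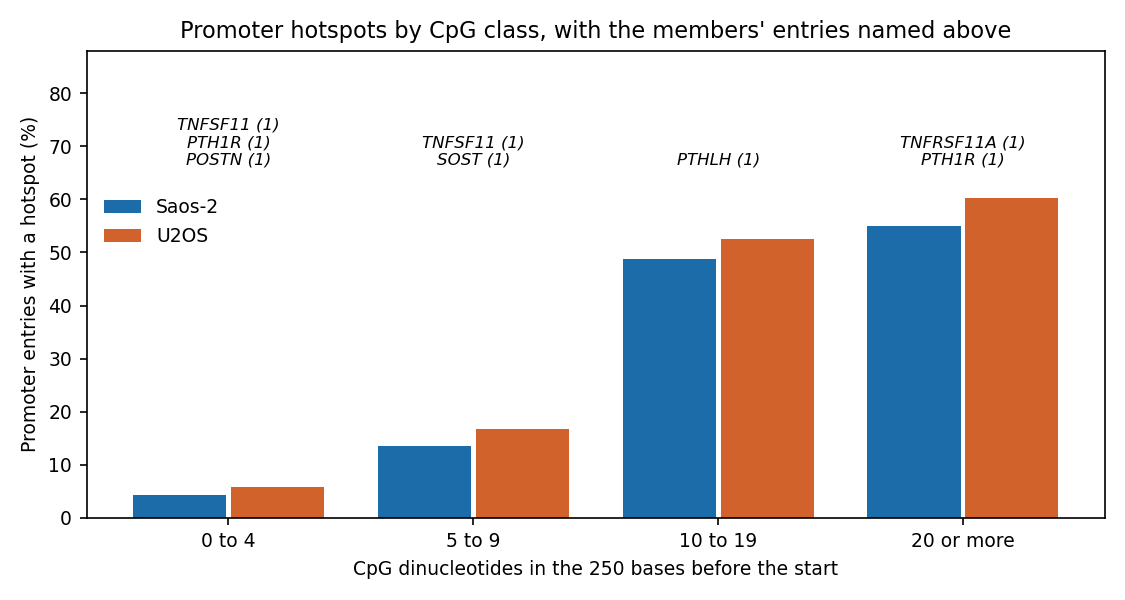
Share of RefSeq promoter entries that overlapped a hotspot (y axis, percent), by the number of CpG dinucleotides in the 250 bases before the start (x axis), for Saos-2 and U2OS. The names above the bars give the class of each member's entries, with the number of entries in parentheses; none of the 8 entries held a hotspot, while the share over all entries climbed from 4.30% to 54.9% in Saos-2.

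Away from the starts, accessible sites were plentiful around most of the genes. Hotspots of the 2 lines that overlapped by at least 1 bp were joined into 94 sites, of which 44 were shared, 19 were specific to Saos-2 and 31 to U2OS. Of the 94 sites, 11 touched the gene itself, 9 lay within 10 kb of it, 31 between 10 and 50 kb away and 43 farther away. The table used here gives gene spans without exons, so a site inside a gene cannot be placed in an exon, an intron or a UTR. Of the shared sites, 11 lay inside or within 1 kb of a start of another protein-coding gene, as did 6 of the Saos-2 and 6 of the U2OS sites.

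**Figure D2:**
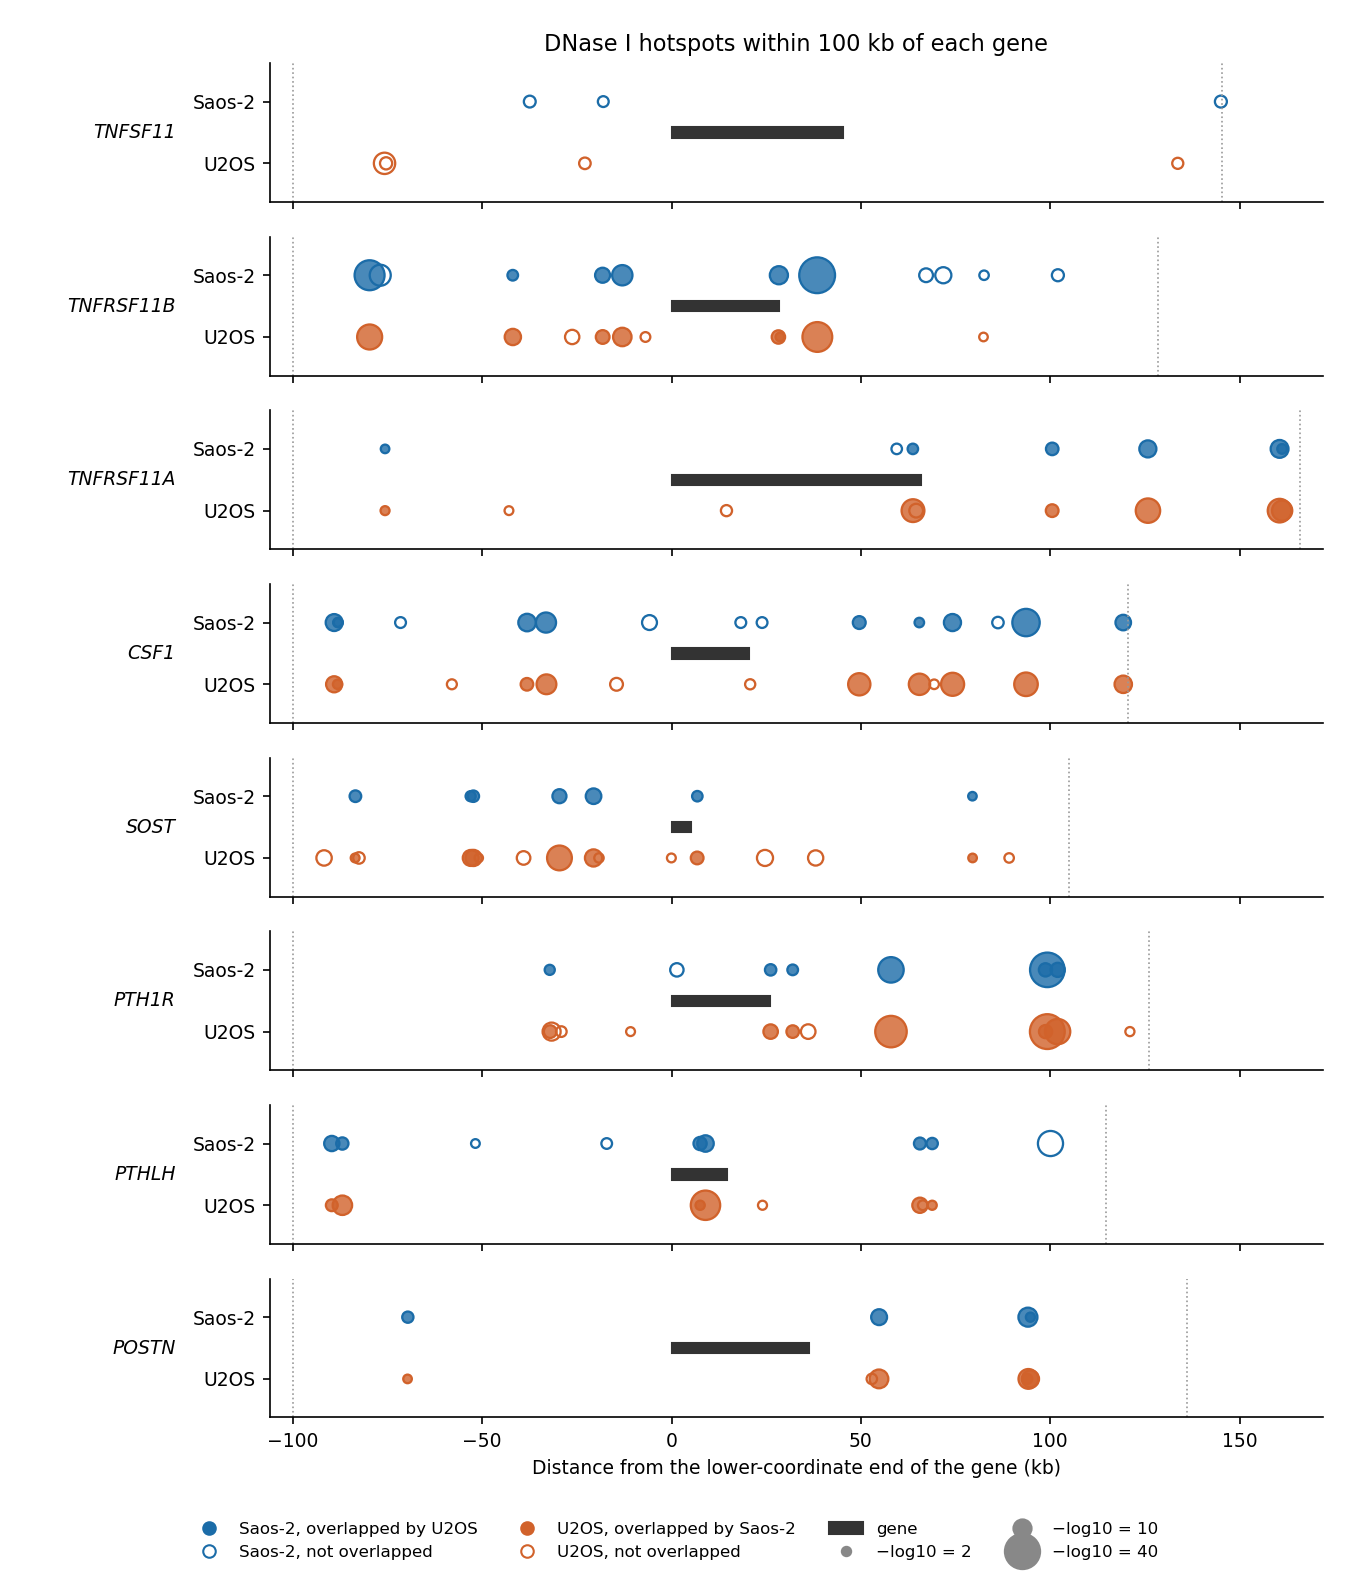
Hotspots in the 8 windows, drawn by distance from the lower-coordinate end of each gene (x axis, kb), with Saos-2 above and U2OS below the gene bar and dotted lines at the window limits. Marker area grows with the authors' −log10 significance, and filled markers are overlapped by the other line; the TNFSF11 row has open markers throughout, and no Saos-2 marker is open in the SOST and POSTN rows.

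Of the Saos-2 hotspots in the windows, 45 of 64 (70.3%, exact 95% binomial interval 57.6 to 81.1%) were overlapped by a U2OS hotspot, against 58.1% in the whole list. Of the U2OS hotspots, 47 of 78 (60.3%, interval 48.5 to 71.2%) were overlapped, against 46.9% in the whole list. The Saos-2 interval included the share of its list and the U2OS interval lay above it. These intervals cover counting error only, and hotspots of 1 window are not independent. Where each hotspot of a pair had to be covered to at least 50%, these became 53.1% and 43.6%, against 44.1% and 35.9% of the whole lists. The U2OS list is the longer one. With both lists at 51556 hotspots the windows held 64 Saos-2 and 58 U2OS hotspots, the opposite order, and 59.4% and 67.2% were overlapped, against 53.1% and 52.1% of the lists.

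Each hotspot carries the authors' −log10 significance, where a higher value means stronger evidence of cutting; it ranges from 1.30 to 100 in both lists. The median in the windows was 4.20 in Saos-2 (4.05 in the whole list) and 5.10 in U2OS (4.60 in the whole list). Overlapped hotspots in the windows had medians of 4.93 (Saos-2) and 7.88 (U2OS), and those without overlap had medians of 3.48 and 2.86. The whole lists had the same order, with medians of 5.32 and 7.17 for overlapped hotspots and 3.01 and 3.40 for the others. Above a significance of 10 there were 2 sites specific to Saos-2 and 1 specific to U2OS. A hotspot of the other line lay within 500 bp of 2 of the 19 Saos-2 sites and of 2 of the 31 U2OS sites. These counts of line-specific sites were not made for the whole lists.

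**Figure D3:**
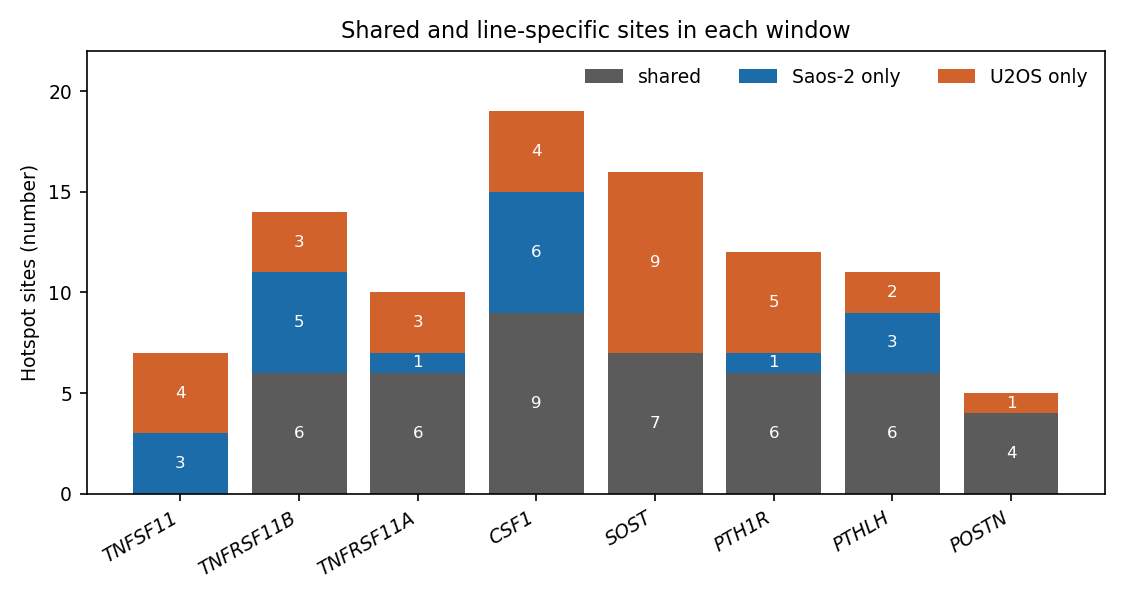
Number of sites in each window (y axis, stacked bars), split into shared sites and sites found in 1 line. In the lists as deposited, the TNFSF11 window had 0 shared sites of 7, and the SOST window had 7 shared, 9 U2OS and no Saos-2 sites.

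TNFSF11 (gene 8600, chromosome 13, 42562736 to 42608013, plus strand) had the fewest hotspots per 100 kb of the 8 windows in both lines, and none of its sites was common to both. It held 3 Saos-2 and 4 U2OS hotspots, none of them inside the gene and none overlapping. No shared site was found around 9.43% of protein-coding genes, and around 5.55% of the 1406 genes with 7 sites. The strongest site was U2OS only, 75.5 kb upstream at 42486666 to 42487283, with a significance of 14.1 that 86.2% of the U2OS list lay below. It lay within 1 kb of an end of the lncRNA gene LINC02341, and the nearest Saos-2 hotspot was 37912 bp away. A second U2OS hotspot of significance 4.04 followed it at 42487286 to 42487486. With hotspots under 150 bp apart merged, the window held 3 U2OS hotspots. Mouse Tnfsf11 is known to have distal enhancers far upstream of its start, and no position of them was used here.

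The other TNFSF11 sites had values below the median of their list. Saos-2 hotspots lay 37.3 kb upstream (significance 3.75), 17.9 kb upstream (3.00) and 99.7 kb downstream (3.85), the last near the limit of the window. U2OS hotspots lay 22.8 kb upstream (3.53) and 88.3 kb downstream (3.19). In the top 50% of each list, 0 Saos-2 hotspots and 1 U2OS hotspot remained in the window. Within 50 kb of the gene there were 2 Saos-2 hotspots and 1 U2OS hotspot.

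TNFRSF11B (gene 4982, chromosome 8, 118923557 to 118951885), which encodes the decoy that blocks RANK ligand, had the strongest hotspot of the 8 windows. It held 11 Saos-2 and 10 U2OS hotspots in 14 sites, of which 6 were shared, 5 belonged to Saos-2 alone and 3 to U2OS alone. At its higher-coordinate end Saos-2 had a hotspot of 892 bp at 118951462 to 118952353 with a significance of 9.95. It covered a pair of U2OS hotspots, at 118951578 to 118951981 (significance 5.02) and 118952149 to 118952216 (1.61). The same site lay within 1 kb of an end of the neighbouring gene COLEC10, a collectin, so it cannot be assigned to 1 of these genes.

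The strongest site near TNFRSF11B lay 9.84 kb above that end, inside COLEC10, at 118961724 to 118962290. Its significance was 41.3 in Saos-2, above 99.5% of the list, and 28.3 in U2OS, above 96.7%. A second strong shared site, at 118843624 to 118844069 inside a lncRNA gene, lay 79.5 kb below the gene with values of 28.7 and 19.7. A Saos-2 site nearby, at 118846448 to 118846868, reached 13.7 and was 2396 bp from the nearest U2OS hotspot. Between these and the gene, a shared site 12.8 kb below it had values of 12.7 in Saos-2 and 10.3 in U2OS. Among the 5 sites with 1 hotspot in each line, 4 were higher in Saos-2, whereas over all 27672 such pairs of the lists 62.7% were higher in U2OS. The 9 remaining sites of the window had values from 1.57 to 7.88. Without the hotspots in or at the start of other genes, 5 Saos-2 and 6 U2OS hotspots were left.

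TNFRSF11A (gene 8792, chromosome 18, 62325310 to 62391288, plus strand), the receptor of RANK ligand on osteoclast precursors, had its strong sites toward and beyond its 3′ end. Its start lay 14429 bp from the nearest U2OS hotspot and 59394 bp from the nearest Saos-2 hotspot. The window held 7 Saos-2 and 9 U2OS hotspots, and 6 of its 10 sites were shared. Inside the gene, a shared site at 62388880 to 62389251 reached 2.76 in Saos-2 against 16.3 in U2OS. The other sites inside the gene had U2OS values of 3.22 and 5.35 and a Saos-2 value of 2.78, and none of the 3 was shared.

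Downstream of TNFRSF11A, the shared site at 62450744 to 62451445, 59.5 kb from the gene, had values of 8.72 in Saos-2 and 18.7 in U2OS. Another at 62485662 to 62486017 had values of 9.63 and 17.5, and its neighbour at 62486353 to 62486689 had 2.26 and 12.6. A shared site 34.4 kb downstream was nearly equal, at 4.31 and 4.46. U2OS was higher at each of the 6 shared sites. The remaining sites, a shared one and a U2OS one inside RELCH, had values from 1.56 to 1.80.

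CSF1 (gene 1435, chromosome 1, 109910506 to 109930992), the gene of M-CSF, had the densest Saos-2 window. It held 15 Saos-2 and 13 U2OS hotspots in 19 sites, of which 9 were shared, 6 belonged to Saos-2 alone and 4 to U2OS alone. This was 6.80 Saos-2 hotspots per 100 kb, more than around 95.5% of protein-coding genes, and 5.90 U2OS hotspots per 100 kb, more than around 89.0%. None of the 4 sites in the gene or within 10 kb of it was shared. Saos-2 had a hotspot inside it at 109928663 to 109928936 (significance 3.00), and U2OS had a hotspot 213 bp above its higher-coordinate end (2.54). Saos-2 hotspots also lay 5.69 kb below the gene (6.44) and 3.33 kb above it (2.97).

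The shared sites around CSF1 lay farther out. Below the gene, in the lncRNA gene LINC01768, the site at 109876964 to 109877773 had nearly equal values of 12.4 in Saos-2 and 12.0 in U2OS. Its neighbour at 109872152 to 109872564 had 9.26 and 4.35. Above the gene, the site at 109959874 to 109960285 had 4.58 in Saos-2 and 15.4 in U2OS, and the one at 109975756 to 109976190 had 2.14 and 14.1. The strongest hotspots of both lines lay inside AHCYL1, a neighbouring gene. The site at 110003723 to 110004480 had values of 23.8 and 17.4, and that at 109984470 to 109984916 had 8.78 and 16.7. Both overlapped a promoter entry of AHCYL1. The 9 remaining sites had values from 1.81 to 9.11.

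PTHLH (gene 5744, chromosome 12, 27958084 to 27972733, minus strand), the gene of PTH-related peptide, had a strong shared site inside the gene. At 27966852 to 27967258 the significance was 27.6 in U2OS, above 96.5% of the list, and 8.05 in Saos-2, above 76.8%. This site lay 2718 bp from the tabulated start in U2OS and 2740 bp in Saos-2. A second shared site inside the gene, at 27965501 to 27965758, had the opposite order, with 4.86 in Saos-2 and 1.96 in U2OS. The window held 9 Saos-2 and 8 U2OS hotspots in 11 sites, 6 of them shared.

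A Saos-2 site of 736 bp lay 85.0 kb upstream of PTHLH, at 28057771 to 28058506, and its significance of 19.9 was the highest of any line-specific site in the 8 windows. The nearest U2OS hotspot was 30817 bp away. Downstream, a shared site at 27871006 to 27871392 had 11.5 in U2OS and 4.08 in Saos-2, while its neighbour at 27868199 to 27868602 had 3.73 and 6.80. The site at 28023504 to 28023828, 50.8 kb upstream, had 6.77 in U2OS and 3.82 in Saos-2. The other sites had values from 1.64 to 3.34. No other protein-coding gene overlapped this window, so none of its sites lay at another coding start.

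PTH1R (gene 5745, chromosome 3, 46877721 to 46903799, plus strand), the receptor of PTH and of the PTHLH product, had more hotspots in U2OS (12) than in Saos-2 (8). Of its 12 sites 6 were shared, 1 belonged to Saos-2 alone and 5 to U2OS alone. The Saos-2 site lay in the gene at 46878999 to 46879278, 1278 bp past the first start, with a significance of 5.04. The nearest U2OS hotspot to it was 12059 bp away. This stretch is also part of the span of MYL3, a myosin light chain gene. At the 3′ end of PTH1R a shared site at 46903764 to 46904028 had 3.42 in Saos-2 and 6.03 in U2OS.

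The strongest sites of the PTH1R window lay inside the spans of neighbouring genes, and position alone does not assign them to a gene. The site at 46976347 to 46977279 overlapped a promoter entry of CCDC12 and had nearly equal values of 38.4 in Saos-2 and 39.0 in U2OS. A site inside CCDC12 at 46935455 to 46935871 had 20.5 and 31.8, and that at the start of NBEAL2, at 46979461 to 46979862, had 5.72 and 20.1. The strongest U2OS-only site, 31.4 kb upstream at 46845806 to 46846332, had a significance of 9.84, and a Saos-2 hotspot of 2.51 ended 115 bp from it. Another U2OS hotspot, at 46845593 to 46845800 (4.48), overlapped that Saos-2 hotspot. Joining hotspots under 150 bp apart would therefore make the U2OS-only site part of a shared one. Without hotspots in or at the start of other genes, 3 Saos-2 and 6 U2OS hotspots remained. U2OS was higher at each of the 5 sites with 1 hotspot per line. The 5 remaining sites had values from 1.74 to 6.14.

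SOST (gene 50964, chromosome 17, 43753738 to 43758791, minus strand), the gene of sclerostin, had the largest difference in number between the lines, namely 7 Saos-2 and 16 U2OS hotspots. Each of the 7 Saos-2 hotspots was overlapped, and the other 9 U2OS hotspots were not. No Saos-2-only site was found around 8.24% of the 1674 protein-coding genes with 7 Saos-2 hotspots. The U2OS density of 7.80 per 100 kb was above that of 97.1% of protein-coding genes, and the Saos-2 density of 3.41 above that of 67.0%. At 43670098 to 43670411 and at 43833136 to 43833248 the overlapping U2OS hotspot was weak, at 1.71 and 1.58. These values were above 5.74% and 3.11% of the U2OS list. With lists of equal length U2OS had 10 hotspots in the window, without these weak ones. The overlap of all 7 Saos-2 hotspots therefore depends on the longer U2OS list.

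The sites nearest the SOST start were a shared one at 43760359 to 43760664, 1.57 kb upstream, with 2.75 (Saos-2) and 4.46 (U2OS), and a weak U2OS one at the 3′ end (1.72). Downstream of the gene, the site at 43723971 to 43724349, 29.4 kb away, was the strongest of the window, with 19.4 in U2OS and 5.63 in Saos-2. The site at 43732974 to 43733338, 20.4 kb away, had 8.82 and 7.12. A pair of shared sites 52.1 and 52.9 kb downstream, inside the lncRNA gene LINC02594, had 7.74 and 7.54 in U2OS and 3.44 and 2.54 in Saos-2. A deletion downstream of human SOST that removes a distal enhancer is the known cause of van Buchem disease, and the position of that enhancer was not used here.

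Some U2OS-only sites of the SOST window lay at other genes: at an end of MEOX1, a mesodermal homeobox gene (significance 6.93), and at an end of DUSP3, a phosphatase gene (7.65). Others lay between genes, at 43791675 to 43791914 (6.78) and at 43714542 to 43714823 (5.19). The 4 further U2OS-only sites had values from 1.43 to 3.47. The 2 shared sites not yet described had 3.59 and 1.71, and 1.54 and 1.58, in Saos-2 and U2OS.

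POSTN (gene 10631, chromosome 13, 37562585 to 37598768, minus strand), the gene of periostin, had no hotspot inside it in either line. At least 1 hotspot lay inside 60.2% of protein-coding genes in Saos-2 and inside 66.4% in U2OS, and inside 5 of the 8 genes described here in either line. In both lines these included TNFRSF11B, TNFRSF11A, PTH1R and PTHLH, while the fifth was CSF1 in Saos-2 and SOST in U2OS. The POSTN window held 4 Saos-2 and 6 U2OS hotspots in 5 sites, of which 4 were shared. The shared site nearest its start, at 37617170 to 37617587 and 18.4 kb upstream, had 7.43 in Saos-2 and 10.7 in U2OS. The strongest, at 37656364 to 37657007 inside the ion channel gene TRPC4, had nearly equal values of 11.0 and 12.0. Its neighbour at 37657158 to 37657530 had 1.89 in Saos-2 and 8.87 in U2OS. The shared site downstream had 3.30 and 1.57, the latter above only 2.90% of the U2OS list, and the U2OS-only site had 2.71.

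Across the windows, shared sites mostly had the higher significance in U2OS, but not around every gene. Of 41 sites with 1 hotspot in each line, 28 (68.3%) were higher in U2OS, against 62.7% of all such pairs. The share was 6 of 6 for TNFRSF11A, 5 of 5 for PTH1R and 6 of 7 for SOST, but 1 of 5 for TNFRSF11B, 3 of 6 for PTHLH and 5 of 9 for CSF1. The remaining 3 were in the POSTN window, with 2 higher in U2OS.

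**Figure D4:**
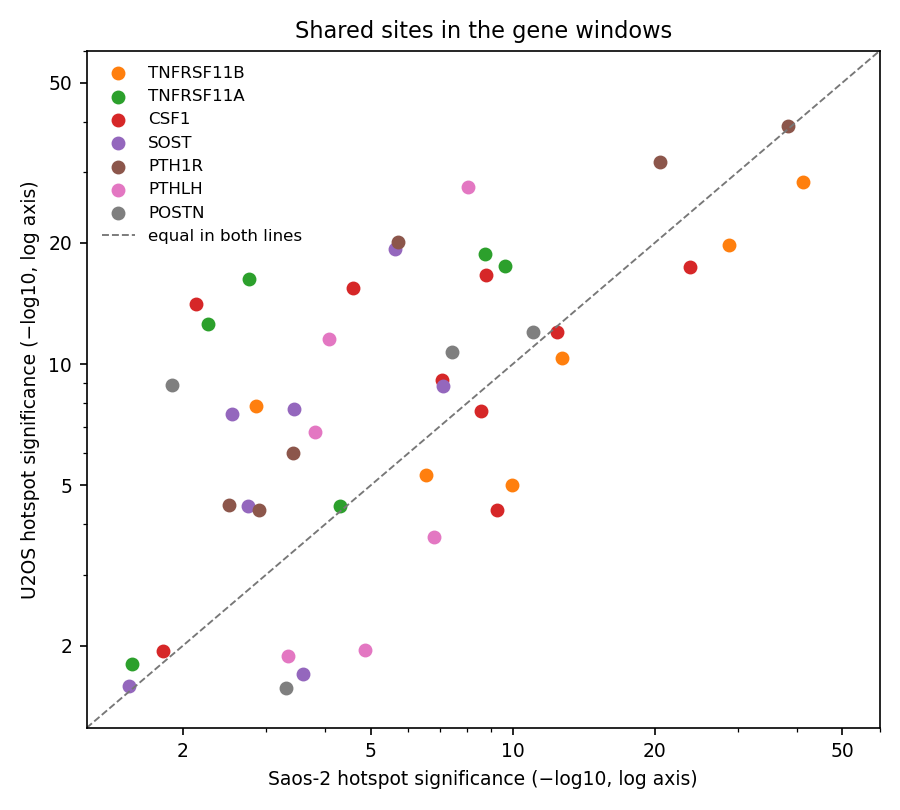
Significance of each shared site in Saos-2 (x axis) and U2OS (y axis), both −log10 on log axes, coloured by gene; the dashed line marks equal values and a site with several hotspots is drawn at its highest. Sites of TNFRSF11A and PTH1R lie above the line, and the strongest site of TNFRSF11B lies below it at 41.3 and 28.3.

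More hotspots were called in U2OS than in Saos-2 in 5 of the 8 windows (TNFSF11, TNFRSF11A, SOST, PTH1R and POSTN), against 56.4% of protein-coding genes. More were called in Saos-2 in 3 (TNFRSF11B, CSF1 and PTHLH), against 30.5%. With lists of equal length these numbers were 4 and 3, against 41.0% and 44.2% of genes, and TNFRSF11A had equal numbers. With hotspots under 150 bp apart merged they were also 4 and 3, and TNFSF11 had 3 hotspots in each line. Shares of all genes were not counted for the merged lists. With flanks of 50 kb U2OS had more in 5 windows, against 51.0% of genes, and Saos-2 in 1, against 29.2%. That 1 was TNFSF11 (2 against 1), TNFRSF11B had 7 Saos-2 and 8 U2OS hotspots, and CSF1 and PTHLH had equal numbers, so none of these 4 windows kept its order. At least 1 shared site lay in 7 of the 8 windows and around 90.6% of protein-coding genes.

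By hotspots per 100 kb, the Saos-2 order was CSF1 (6.80), TNFRSF11B (4.82), PTHLH (4.19), PTH1R (3.54), SOST (3.41), TNFRSF11A (2.63), POSTN (1.69) and TNFSF11 (1.22). The U2OS order was SOST (7.80), CSF1 (5.90), PTH1R (5.31), TNFRSF11B (4.38), PTHLH (3.73), TNFRSF11A (3.38), POSTN (2.54) and TNFSF11 (1.63). The same 3 genes, TNFRSF11A, POSTN and TNFSF11, were lowest in both lines. With counts of 3 to 16 hotspots per window and no replicate, the order of neighbours is not separated from counting error. The median over protein-coding genes was 2.49 in Saos-2 and 2.98 in U2OS.

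**Figure D5:**
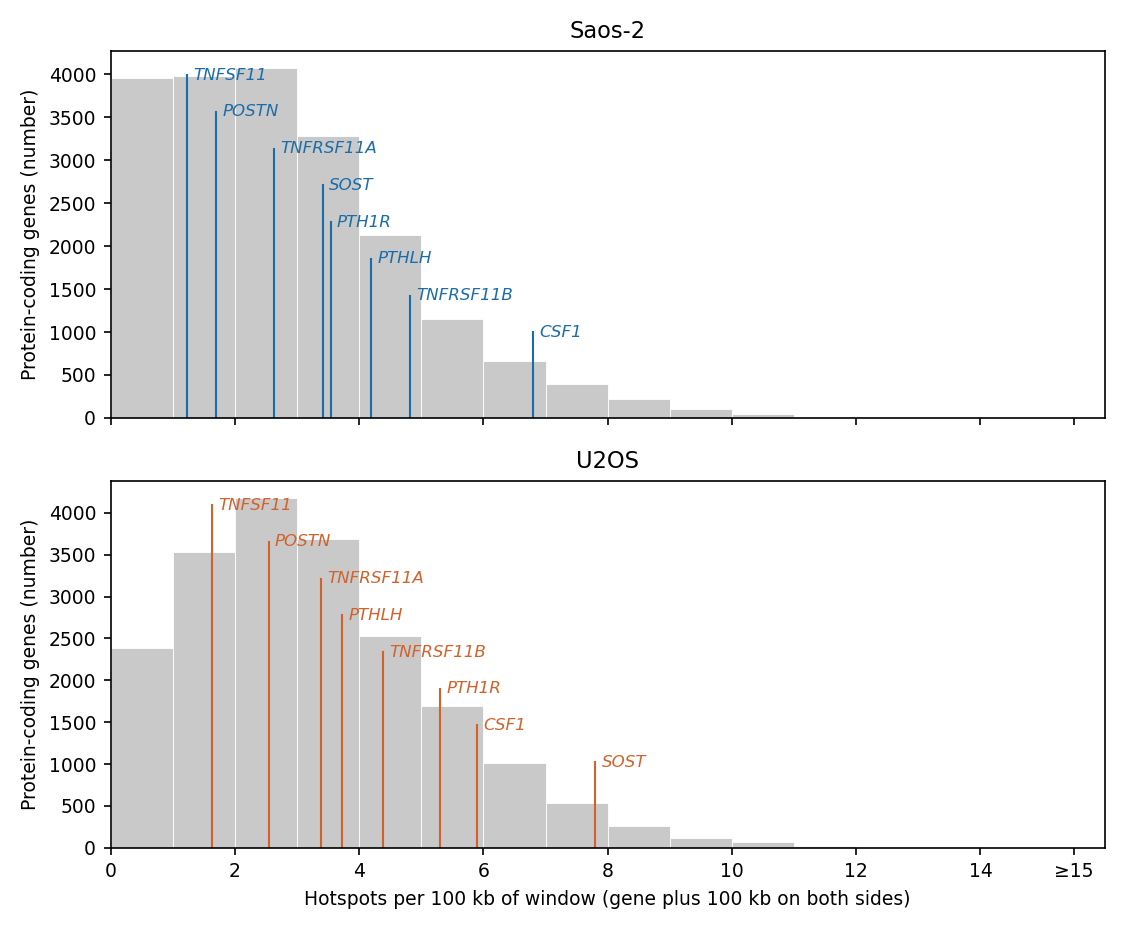
Hotspots per 100 kb of window (x axis) for 20037 protein-coding genes (grey bars, number of genes on the y axis) in Saos-2 and U2OS, with the 8 genes marked; the last bin holds genes at 15 or more. TNFSF11 is lowest of the 8 in both lines, at 1.22 and 1.63, and SOST moves from 3.41 in Saos-2 to 7.80 in U2OS.

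A wider list of 42 other genes linked to bone, among them genes of RANK ligand, M-CSF, PTH and sclerostin signalling, was counted in the same way. It also held genes beyond these pathways, such as VDR, FGF23, PHEX, IL6 and EPHB4. A hotspot at a start was called for 12 of the 42 genes in Saos-2 and 16 in U2OS, which are 28.6% and 38.1%, against 48.1% and 53.5% of all protein-coding genes. In neither line had 24 of them one, against 41.8% of all genes. In both lines 10 of them had one, against 43.3%. Of the 42 genes 28 have a promoter entry, against 79.1% of protein-coding genes as a whole. Both gene ends were used for the rest, so the shares are not fully alike. U2OS had more hotspots within 100 kb for 27 of the 42 genes, or 64.3%, and Saos-2 for 12, against 56.4% and 30.5% of all genes. The largest excess in U2OS was around NFATC1, the transcription factor that drives osteoclast differentiation, namely 2 Saos-2 and 13 U2OS hotspots. CYP24A1 (12 Saos-2 and 21 U2OS), PDE4D (17 and 26) and SEMA3A (11 and 20) followed, each with 9 more in U2OS. Such differences are raw counts in windows of unlike length, PDE4D and SEMA3A being long genes, and the U2OS list is the longer one. The largest excess in Saos-2 was around WNT16, a WNT ligand of bone, with 8 hotspots against 1, followed by PRKACA, a catalytic subunit of protein kinase A, with 9 against 5.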

How the data were processed

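DNase-seq was measured in 1 Saos-2 and 1 U2OS library. Per the submitters' processing notes, Trimmomatic 0.38, BWA 0.7.15 and the hg38 build were used; the hotspot caller is not given in the sources used here. The deposited lists, 1 per library, were called at a false discovery rate of 0.05 according to their names. The deposited −log10 value of each hotspot was taken as its significance, since its lowest value of 1.30 is the −log10 of 0.05. The deposited score is that value multiplied and rounded, and was not used.

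Windows were the RefSeq GRCh38.p14 gene spans plus 100 kb. Hotspots overlapping by at least 1 bp were called shared. Starts came from the RefSeq promoter table, which matched 6 of the 8 genes and 79.1% of protein-coding genes; otherwise both gene ends served. A start hotspot lay within 1 kb. Exact binomial intervals cover counting error only. Depth is unknown. Named were all 8 genes with, per window, the hotspot at the start and the 3 hotspots of highest significance per line; from the wider list, the 3 genes per line with the largest difference in number, ties apart. Further sites given by value complete the windows. The genes and lists were chosen with earlier results of these data known. Interval overlaps were tested on simulated data. Python 3.11.15, pandas 2.3.3, scipy 1.17.1 and matplotlib 3.10.9 were used. Sequences on chromosomes 8 and 18 were not printed.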

Additional observations from a re-analysis of the deposited data

How the results depend on the processing

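No paired analysis was possible because each line had 1 library; there was no replicate to leave out. Counting hotspots up to 500 bp apart as shared, and leaving out hotspots in or at the start of other genes, were chosen after seeing the data. The order of the lines turned for the total in the 8 windows with lists of equal length (64 Saos-2, 58 U2OS), for the overlapped shares with those lists (59.4% and 67.2%) and in the gene spans (57.1% and 62.5%), for the TNFSF11 and TNFRSF11B windows with flanks of 50 kb, for TNFRSF11B also without hotspots at other genes, and for the number of genes with a start hotspot within 2.5 kb. The numbers of hotspots in the 8 windows fell, by construction, to 31 (Saos-2) and 42 (U2OS) with flanks of 50 kb, to 7 and 8 in the gene spans, and to 33 and 41 in the top 50% of each list. Where each hotspot of a pair had to be covered to at least 50%, the overlapped share was 53.1% in Saos-2 and 43.6% in U2OS. A start distance of 2.5 kb gave 4 of 8 genes a hotspot in Saos-2 (52.1% of all genes) and 3 in U2OS (58.2%). These include CSF1, counted at its higher-coordinate end, which may not be its start. In the top 50% of each list, 1 of the 8 genes and 9 of the 42 genes counted beside them had a U2OS start hotspot, against 39.3% of all genes. Of 96 counts for single windows 51 moved by more than 1.5 times. Depth limits all absences: a site without a hotspot was not called in that library.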
